A study of Mus musculus with 6 samples.

Results

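In the data described here, 51 of 16982 genes of the count table crossed from few or no counts to at least 20, or the reverse, between WT and Rnf20 knockout cells at day 3 of reprogramming. A gene was taken as switched on when it was chosen by 10 or fewer raw counts in each WT library and 20 or more in each knockout library. A gene was taken as switched off when the same limits held with the genotypes exchanged. The limits gave 34 genes switched on and 17 switched off. Symbols that start with newGene, Hist or Hox were left out, which removed 5 Hist genes and 8 predicted loci from the first set and 1 predicted locus from the second. Since the counts of this contrast selected the genes, their differences between genotypes are a description and carry no test.

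The cells were mouse embryonic fibroblasts (MEF) of C57BL/6 background, harvested at day 3 after infection with retroviruses that express the reprogramming factors (OSKM: OCT4, SOX2, KLF4 and C-MYC). There were 3 WT (wild type) libraries, WT1 to WT3, and 3 Rnf20-/- libraries, KO1 to KO3. Per the study's methods, the cells came from mice with loxP sites around exons of Rnf20 and a ubiquitously expressed, tamoxifen-inducible Cre, and 4-OH tamoxifen, given over the days before infection, induced the deletion. The labels list all 6 samples as untreated, and the sources used here do not state whether WT cells received the drug. Neither the labels nor the methods say that each library came from a separate embryo, so that the p-values measure only the spread between these samples.

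RNF20 is the ubiquitin ligase that, with its partner RNF40, attaches a single ubiquitin to histone H2B (H2Bub). This mark is laid down along transcribed genes, where it loosens nucleosome packing and works together with the elongating polymerase and with histone H3 methylation. In fibroblasts that start to reprogram, genes of the somatic programme are shut down while genes of other fates are kept silent or opened in turn.

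Rnf20 itself had 2253, 2250 and 2226 counts in WT1 to WT3 and 392, 390 and 344 counts in KO1 to KO3. Total counts ranged from 20545442 to 21746898. KO3 stood apart from KO1 and KO2: the chi-square per gene between libraries was 6.04 to 8.92 for the WT pairs, 8.57 for KO1 and KO2, and 92.4 and 101 for the pairs with KO3. The Y-linked gene Ddx3y was at 0 counts in KO1 and KO3 and at 1990 to 2686 counts in the other 4 libraries. Every WT library thus held this Y-linked transcript and only KO2 of the knockout libraries did, so sex was not balanced between the genotypes. The part of sex in the differences was not tested. Of the fibroblast markers, 9 of 9 were present, with a summed level of 26700 to 29100 CPM (counts scaled to the TMM-normalized library total) in WT and 17600 to 32800 CPM in knockout. Among them Thy1 was lower in knockout (log2 fold change -1.11, adjusted p = 0.00251, edgeR quasi-likelihood test). Pdgfra had -1.22 (adjusted p = 0.0185), and Thy1 alone passed an adjusted p under 0.01. The skeletal muscle markers were all under 1 CPM, and of the T and NK cell markers 1 of 5 was in the count table, at 0 to 0.191 summed CPM. In bulk RNA, more cells that express a gene and more RNA per cell cannot be told apart.

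Most of the switched genes were rare transcripts. Of the 51 genes, 44 stayed under 100 counts in every library, and their median mean CPM lay at the 2.79th percentile of the 13386 genes that passed the filter on low counts. All 51 passed this filter, which a gene high in 3 libraries does by construction. On the log2 CPM scale with 2 counts added, the genes switched on differed by 1.29 to 5.40 between genotypes (median 2.63) and the genes switched off by -3.57 to -1.56 (median -2.40). Such differences understate the change of genes near 0 counts. FPKM values, which are levels per length, were given for 25 genes switched on and 14 switched off. Of these, 9 and 2 exceeded 1 FPKM in each library of the high genotype.

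The genome sequence around the RefSeq start is shown for 5 of these genes, because their promoters carry the letters discussed with the promoter comparison. The sequences run 5′ to 3′ on the gene's own strand, 250 bases before to 50 bases after the start, from RefSeq on GRCm38.p6. Capitals mark TATAAA (the TATA box), TGACTCA (the AP-1 site), GGGTGTG (a KLF site) or CACGTG (an E-box), on either strand. The 3 genes switched on lie at chr3:92458671-92458970 on the minus strand (Sprr3), chr2:151910957-151911256 on the plus strand (Angpt4) and chr5:30012864-30013163 on the plus strand (Il6).
Sprr3: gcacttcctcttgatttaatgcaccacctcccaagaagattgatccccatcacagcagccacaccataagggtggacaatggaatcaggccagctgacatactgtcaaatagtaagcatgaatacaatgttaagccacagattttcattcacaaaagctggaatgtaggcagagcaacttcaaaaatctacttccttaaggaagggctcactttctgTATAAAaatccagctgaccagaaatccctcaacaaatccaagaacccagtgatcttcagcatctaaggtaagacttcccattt
Angpt4: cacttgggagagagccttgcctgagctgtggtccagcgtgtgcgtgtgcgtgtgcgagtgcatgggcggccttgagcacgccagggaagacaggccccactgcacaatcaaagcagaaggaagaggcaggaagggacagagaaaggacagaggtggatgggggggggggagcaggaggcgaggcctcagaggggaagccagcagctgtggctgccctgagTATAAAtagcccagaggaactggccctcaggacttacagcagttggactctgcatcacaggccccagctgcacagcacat
Il6: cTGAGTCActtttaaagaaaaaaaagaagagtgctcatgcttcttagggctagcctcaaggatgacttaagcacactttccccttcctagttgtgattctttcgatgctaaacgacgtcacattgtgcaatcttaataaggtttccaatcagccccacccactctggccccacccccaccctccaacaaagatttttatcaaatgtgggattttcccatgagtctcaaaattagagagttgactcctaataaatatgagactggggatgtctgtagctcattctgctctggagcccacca
The 2 genes switched off lie at chr6:122486256-122486555 on the minus strand (Rimklb, inside the GENCODE bounds of the gene, chr6:122447296-122498761) and at chr10:121033754-121034053 on the plus strand (Wif1).
Rimklb: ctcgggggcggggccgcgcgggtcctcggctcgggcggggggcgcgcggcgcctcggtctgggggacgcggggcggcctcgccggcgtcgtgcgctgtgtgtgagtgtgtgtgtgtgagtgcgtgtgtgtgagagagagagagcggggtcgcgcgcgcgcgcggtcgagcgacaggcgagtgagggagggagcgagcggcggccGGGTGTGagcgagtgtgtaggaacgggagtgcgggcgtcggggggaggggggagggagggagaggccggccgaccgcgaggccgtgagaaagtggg
Wif1: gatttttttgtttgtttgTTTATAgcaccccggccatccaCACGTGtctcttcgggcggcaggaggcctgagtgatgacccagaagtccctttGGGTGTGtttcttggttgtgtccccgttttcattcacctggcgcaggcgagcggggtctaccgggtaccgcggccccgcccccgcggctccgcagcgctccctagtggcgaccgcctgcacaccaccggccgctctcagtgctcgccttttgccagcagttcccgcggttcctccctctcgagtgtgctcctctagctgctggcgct

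By the ratio of the lowest knockout count to the highest WT count plus 1, the first 3 genes switched on are known from testis, endothelium and liver. Fam71f1, a gene expressed mainly in testis (chr6:29319140-29336019), had 1, 2 and 1 counts in WT1 to WT3 and 38, 34 and 44 in KO1 to KO3. Adgrl4, an adhesion receptor of endothelial cells (chr3:151437887-151545086), had 0, 1 and 0 counts in WT and 26, 26 and 21 in knockout. Ces1g, a carboxylesterase of liver (chr8:93302369-93337308), had 0, 0 and 1 counts in WT and 27, 30 and 21 in knockout. The log2 differences were 3.62 for Fam71f1, 3.52 for Adgrl4 and 3.60 for Ces1g, and they became 4.46, 5.10 and 5.19 with 0.5 counts added, so they depend on that choice and are no bounds. The lowest knockout count was 10.5 times the highest WT count plus 1 for both Adgrl4 and Ces1g, and 11.3 times for Fam71f1. Ces2e, a carboxylesterase of intestine and liver from a separate cluster on chromosome 8, had 6, 3 and 2 counts in WT and 28, 31 and 66 in knockout.

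**Figure D1:**
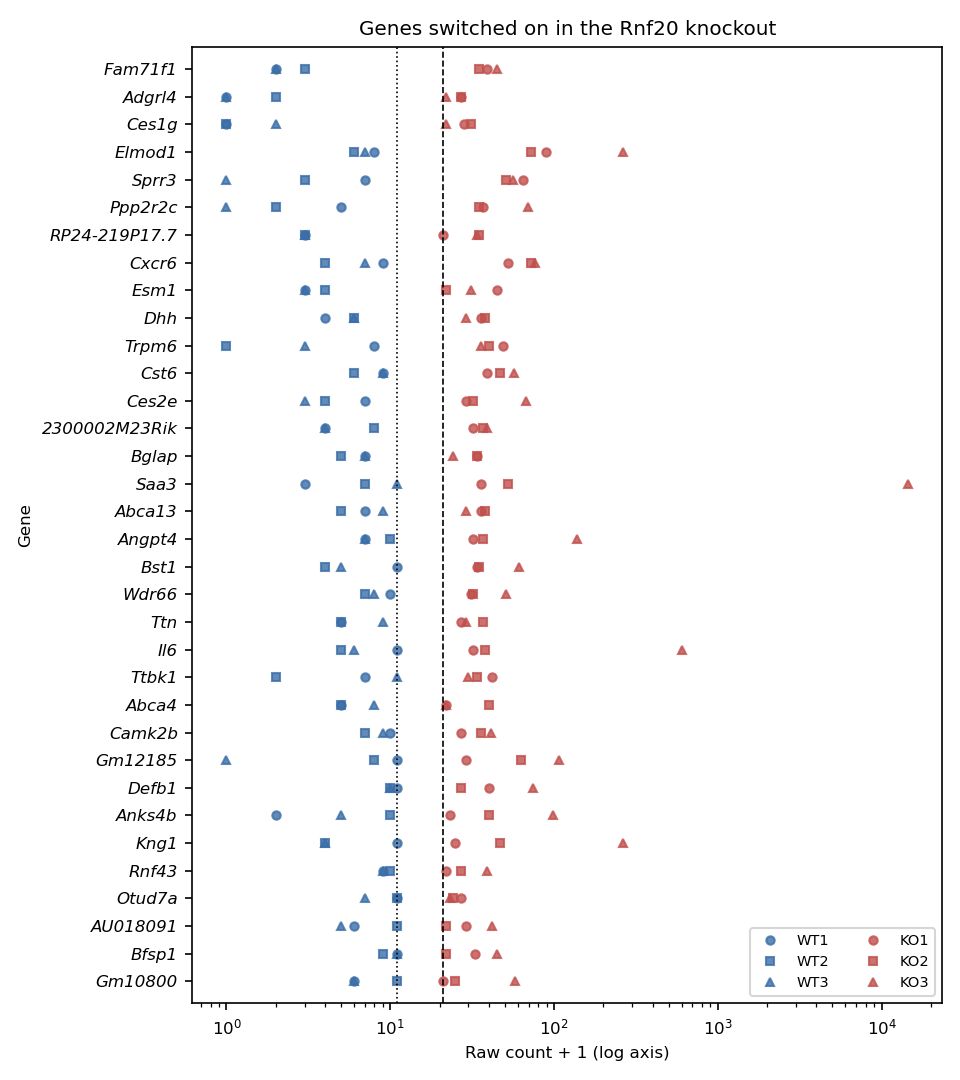
Raw counts plus 1 (log axis) of the 34 genes switched on, by library; blue symbols are WT1 to WT3, red symbols KO1 to KO3, the dotted line is the limit of 10 counts and the dashed line that of 20 counts. Saa3, Il6, Kng1, Elmod1 and Angpt4 have a KO3 value far to the right of KO1 and KO2.

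Among the other genes switched on, Dhh, Cxcr6 and Angpt4 encode a ligand or a receptor. Dhh (Desert hedgehog, a secreted ligand of the Hedgehog pathway, chr15:98891152-98898540) had 3, 5 and 5 counts in WT and 35, 37 and 28 in knockout, or 0.206 ± 0.0547 CPM in WT and 1.59 ± 0.224 CPM in knockout (SD, n = 3). Cxcr6, the receptor of the chemokine CXCL16 (chr9:123806475-123811760), had 8, 3 and 6 counts in WT and 51, 71 and 75 in knockout. Angpt4, a ligand of the endothelial receptor TIE2, had 6, 9 and 6 counts in WT and 31, 36 and 138 in knockout. The exons of Dhh overlap those of Rhebl1 on the same strand, so reads there may be shared between genes. Cxcr6 lies inside the bounds of Fyco1 on the opposite strand, but its exons overlap those of no other gene. Rhebl1 was not called (log2 fold change -0.77, adjusted p = 0.0348), nor was Fyco1 (0.08, adjusted p = 0.379, edgeR quasi-likelihood test). Esm1, the endothelial proteoglycan endocan, had 2, 3 and 2 counts in WT and 44, 21 and 30 in knockout. Of the 4 endothelial markers, Pecam1 had 2, 1 and 0 counts in WT and 11, 10 and 11 in knockout, Cdh5 had 0 to 5 counts in both genotypes, and the list summed to 48.3 to 59.0 CPM in WT and 32.3 to 66.9 CPM in knockout, mostly Tek. Their part in the values of Esm1, Adgrl4 and Angpt4 was not tested. Rnf43, a ubiquitin ligase that removes WNT receptors from the cell surface, had 8, 9 and 8 counts in WT and 21, 26 and 38 in knockout. Bst1, a cell surface enzyme of NAD metabolism, had 10, 3 and 4 counts in WT and 33, 34 and 60 in knockout. All WT values of these 6 switched genes lay under all knockout values, as the limits require.

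Dhh was switched on while Gli1 and Gas1 of the Hedgehog pathway were lower in knockout. Ihh, the other Hedgehog ligand in the count table, had 0 to 2 counts in every library. The list held 14 other genes in the count table, 13 of which were tested: 3 were called lower and 1 higher in knockout at an adjusted p under 0.01, against 4.89% lower and 4.98% higher of all genes tested. DESeq2 called 5 lower and 1 higher, against 13.1% and 13.8% of all genes, and 8 and 1 had an unadjusted p under 0.05 in edgeR. A larger share of all genes also passes that unadjusted limit. That share is not given here, so the 8 and 1 are no result about the list. Gli1, a transcription factor and target of the pathway, fell from 4.42, 7.78 and 7.36 CPM in WT to 0.621, 1.47 and 0.381 CPM in knockout (log2 fold change -2.97 ± 0.50 SE, adjusted p = 0.00806). Gas1, a membrane co-receptor, fell from 333, 289 and 299 CPM to 150, 121 and 74.8 CPM (-1.42 ± 0.24, adjusted p = 0.00821). Disp1, which releases the ligand from the cell that makes it, rose from 35.1, 32.9 and 35.9 CPM to 44.4, 46.0 and 47.4 CPM (0.41 ± 0.07, adjusted p = 0.00985). For each of these 3 genes all WT values lay on the same side of all knockout values. The receptor Ptch1 had a log2 fold change of -0.88 (adjusted p = 0.0627) and the pathway's antagonist Hhip of -1.44 (adjusted p = 0.0451), and neither was called by edgeR, whereas DESeq2 called Hhip (adjusted p = 0.0058). The signal transducer Smo had -0.04 (adjusted p = 0.757) and the transcription factor Gli3 -0.02 (adjusted p = 0.869). The transcription factor Gli2 had -0.93 (adjusted p = 0.0286) and was not called by edgeR. It went from 53.2, 56.0 and 55.2 CPM in WT to 29.9, 38.3 and 18.3 CPM in knockout. The median over the 13 genes was -0.80, beside 0.00 over all genes tested. The calls of these 3 genes were lost when any 1 of the WT libraries, KO1 or KO2 was left out (adjusted p = 0.0111 to 0.0496), and without KO3 the adjusted p was 7.99e-06 to 0.00125. With no filter on low counts the call of Disp1 was lost (adjusted p = 0.0128).

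**Figure D2:**
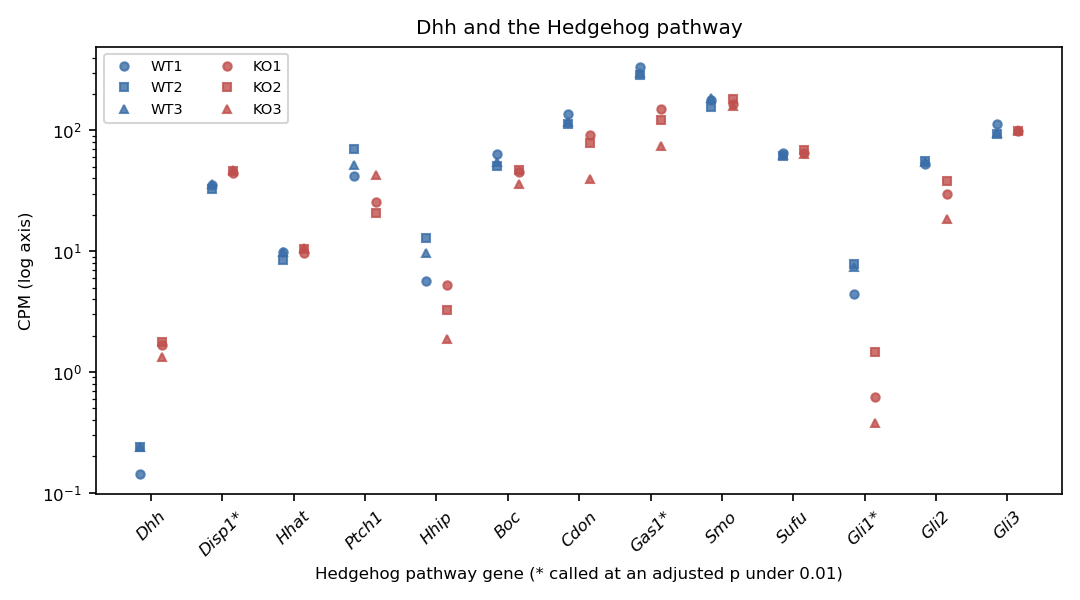
CPM (log axis) of Dhh and 12 of the 13 other tested genes of the Hedgehog list in each library, WT in blue and knockout in red; a star marks a call at an adjusted p under 0.01. Dhh lies higher in knockout, and Gas1 and Gli1 lie lower in all 3 knockout libraries than in any WT library.

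Saa3 and Il6 reached the highest counts of the genes switched on, both in KO3. Saa3, an acute phase protein (chr7:46711998-46715700), had 2, 6 and 10 counts in WT and 35, 51 and 14472 in knockout. Il6, the cytokine that drives the acute phase response (chr5:30013114-30019981), had 10, 4 and 5 counts in WT and 31, 37 and 602 in knockout. Kng1, which encodes kininogen, had 10, 3 and 3 counts in WT and 24, 46 and 262 in knockout. These genes were above all WT values in KO1 and KO2 as well, as the limits require. Their KO3 value was 337 times the mean of KO1 and KO2 for Saa3, 17.7 times for Il6 and 7.50 times for Kng1. Without KO3 the log2 difference went from 5.40 to 2.61 for Saa3, from 3.53 to 2.18 for Il6 and from 3.37 to 2.40 for Kng1. Defb1, a beta-defensin of epithelia, had 10, 9 and 9 counts in WT and 39, 26 and 73 in knockout. Gm12185, which lies beside the interferon-inducible GTPase Irgm1, had 10, 7 and 0 counts in WT and 28, 62 and 106 in knockout.

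KO3 was the highest of the 3 knockout libraries for 21 of the 34 genes switched on (61.8%), beside 43.8% of all genes tested. It exceeded the mean of KO1 and KO2 by more than 2 times in 10 of the 34 (29.4%), beside 4.74% of all genes tested. Those 10 were Saa3, Il6, Kng1, Angpt4, Elmod1, Anks4b, Gm10800, Gm12185, Defb1 and Ces2e. The genes tested were not matched to the 34 for level, and ratios between libraries vary more at low counts. Summed over the 34 genes the counts were 1156 in KO1, 1250 in KO2 and 17064 in KO3; without Saa3 they were 1121, 1199 and 2592, against 156 to 196 in the WT libraries. Of the 6 macrophage markers, all present, Lyz2, Adgre1, Csf1r, Itgam and Ptprc were highest in KO3 and Cd68 was not. Their summed level was 42.0 to 85.6 CPM in WT and 43.9 to 222 CPM in knockout, of which Lyz2 made up 159 CPM in KO3. Adgre1 reached 31.9 CPM in KO3 against 1.76 to 4.27 CPM in the other libraries, Csf1r 12.2 CPM against 5.47 to 7.83 CPM, and Cd68 8.57 CPM against 5.89 to 10.5 CPM. Their part in the KO3 values was not tested. By contrast, 21 of the 34 genes varied by less than 2 times among the knockout libraries. Dhh, Adgrl4, Ces1g, Trpm6, Ttbk1, Abca4, Abca13 and Bglap were lower in KO3 than in the mean of KO1 and KO2, at 0.697 times (Bglap) to 0.808 times (Adgrl4). Otud7a, Ttn, Esm1 and Sprr3 were lower by less, at 0.898 times (Otud7a) to 0.965 times (Sprr3).

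**Figure D3:**
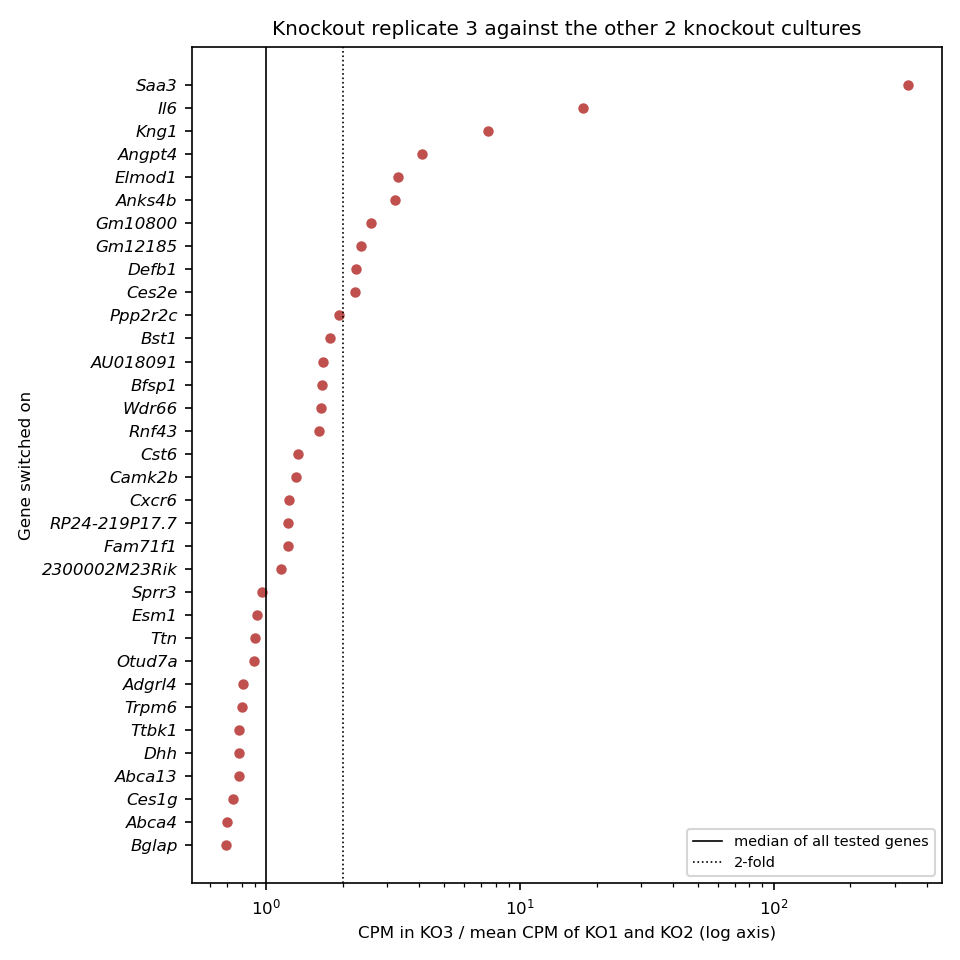
CPM in KO3 divided by the mean CPM of KO1 and KO2 (log axis) for each gene switched on; the solid line is the median of all genes tested (0.997) and the dotted line marks 2 times. Of the 34 genes 10 lie to the right of the dotted line, and Saa3 lies at 337.

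Epithelial and skin genes were represented by Sprr3 and Cst6. Sprr3, a small proline-rich precursor of the cornified envelope of skin (chr3:92456502-92458720), had 6, 2 and 0 counts in WT and 64, 50 and 55 in knockout, with a log2 difference of 3.86. Cst6, an inhibitor of cysteine proteases in skin, had 8, 5 and 8 counts in WT and 38, 46 and 56 in knockout. Of the other cornified envelope genes 10 were in the count table and 3 were tested, with 0 calls in either direction by edgeR and by DESeq2 and 0 at an unadjusted p under 0.05. Sprr1a, the nearest tested gene on one side of Sprr3, had 9, 6 and 18 counts in WT and 64, 22 and 11 in knockout (log2 fold change 1.55, adjusted p = 0.146), so its groups overlapped. The keratinocyte markers summed to 9.59 to 11.1 CPM in WT and 4.57 to 11.5 CPM in knockout. Anks4b, a scaffold protein of brush border microvilli, had 1, 9 and 4 counts in WT and 22, 39 and 98 in knockout.

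Genes known from neurons and sense organs were switched in both directions. Camk2b, a subunit of the calcium- and calmodulin-dependent kinase of synapses, had 9, 6 and 8 counts in WT and 26, 35 and 40 in knockout. Its relative Camk2a rose from 5.47, 5.70 and 5.65 CPM to 13.3, 13.8 and 19.8 CPM (log2 fold change 1.48 ± 0.18 SE, adjusted p = 0.00391), while Camk2d (0.15, adjusted p = 0.213) and Camk2g (0.34, adjusted p = 0.0727) were not called. Ttbk1, a neuronal kinase of tau and tubulin, had 6, 1 and 10 counts in WT and 41, 33 and 29 in knockout. Ppp2r2c, a brain-enriched regulatory subunit of protein phosphatase 2A, had 4, 1 and 0 counts in WT and 36, 34 and 68 in knockout. Elmod1, a GTPase-activating protein needed by hair cells of the inner ear, had 7, 5 and 6 counts in WT and 88, 71 and 262 in knockout. Abca4, the retinoid transporter of photoreceptors, had 4, 4 and 7 counts in WT and 21, 39 and 21 in knockout, and Bfsp1, the lens protein filensin, had 10, 8 and 10 counts in WT and 32, 21 and 44 in knockout. In the opposite direction, Grin2b, a subunit of the NMDA receptor, had 24, 31 and 26 counts in WT and 9, 2 and 1 in knockout. Cbln2, a secreted organizer of synapses, had 23, 37 and 27 counts in WT and 10, 2 and 2 in knockout. Of the other synapse genes 28 were tested, of which 2 (Gria3 and Camk2a) were called higher (7.14%, beside 4.98% of all genes tested) and 0 lower by edgeR; DESeq2 called 3 and 1, and 6 and 4 had an unadjusted p under 0.05. Gria3, a subunit of the AMPA receptor, rose from 63.4, 65.6 and 61.1 CPM to 98.4, 102 and 95.0 CPM (0.64 ± 0.07 SE, adjusted p = 0.00323). The neuron markers summed to 45.4 to 46.9 CPM in WT and 17.0 to 34.7 CPM in knockout.

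Bone, muscle, transport and flagellum each had a gene switched on. Bglap, which encodes the bone protein osteocalcin, had 6, 4 and 6 counts in WT and 33, 33 and 23 in knockout, but 50% of its 75-base transcript windows also occur in Bglap2 or Bglap3, so the copies cannot be told apart with certainty. Of the other bone genes 10 were tested, and 1 was called in each direction (beside 4.89% lower and 4.98% higher of all genes tested): Sost, an inhibitor of WNT signalling made by osteocytes, fell from 5.32, 9.68 and 7.92 CPM to 0.811, 0.285 and 0 CPM (log2 fold change -4.37 ± 0.77 SE, adjusted p = 0.00946), and Spp1, the matrix protein osteopontin, rose from 380, 333 and 366 CPM to 649, 762 and 980 CPM (1.15 ± 0.16, adjusted p = 0.00502). Ttn, the giant spring protein of the sarcomere, had 4, 4 and 8 counts in WT and 26, 36 and 28 in knockout over 106824 exonic bases, and 0 of 10 other sarcomere genes were called by edgeR, beside 1 higher and 1 lower by DESeq2 and 1 higher and 2 lower at an unadjusted p under 0.05. Trpm6, a channel for magnesium, had 7, 0 and 2 counts in WT and 48, 39 and 35 in knockout, and Abca13, a lipid transporter, had 6, 4 and 8 counts in WT and 35, 37 and 28 in knockout. Wdr66, a protein of the sperm flagellum, had 9, 6 and 7 counts in WT and 30, 31 and 50 in knockout. Otud7a, a deubiquitinase, had 10, 10 and 6 counts in WT and 26, 23 and 22 in knockout, the smallest log2 difference of the genes switched on (1.29). The 4 loci without a descriptive name, 2300002M23Rik, AU018091, Gm10800 and RP24-219P17.7, had 2 to 10 counts in WT and 20 to 57 in knockout. Of RP24-219P17.7, 90.2% of the transcript windows also occur in Zfp433, and of Kng1 9.77% occur in Kng2. Exons of Bst1, Wdr66, Ttn, Ttbk1, Prdm8 and Grin2b overlap a gene on the opposite strand, and those of Gm12185 and Fam198a overlap a gene on the same strand.

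Of the genes switched off, Mfng and Neurl1b have a role in Notch signalling. Mfng, a Fringe glycosyltransferase that modifies Notch receptors (chr15:78755882-78773475), had 64, 120 and 92 counts in WT and 6, 6 and 5 in knockout, with a log2 difference of -3.57. Per length it stood at 2.06, 4.79 and 5.08 FPKM in WT and at 0.231, 0.212 and 0.160 FPKM in knockout. Neurl1b, a ubiquitin ligase that promotes uptake of Notch ligands (chr17:26414829-26446349), had 46, 27 and 34 counts in WT and 8, 7 and 8 in knockout. Of the other Notch genes 16 were tested and 0 were called by edgeR, with a median log2 fold change of -0.03. DESeq2 called 3 of them lower and 0 higher, and 4 were lower and 1 higher at an unadjusted p under 0.05. The Fringe gene Lfng had -0.90 (adjusted p = 0.0144), the ligand Dll1 -1.43 (adjusted p = 0.0402) and the target genes Hey1 and Heyl -1.70 (adjusted p = 0.0156) and -1.75 (adjusted p = 0.0466). The target genes Hey2 and Hes1 went the other way, at 0.91 (adjusted p = 0.104) and 0.39 (adjusted p = 0.249). The receptor Notch1 had -0.25 (adjusted p = 0.625).

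Wif1, a secreted protein that binds WNT ligands (chr10:121033960-121100650), had 22, 26 and 27 counts in WT and 10, 9 and 2 in knockout. Of 10 other WNT antagonists Sost was called lower, as given above (1 of 10, beside 4.89% of all genes tested), and 0 were called higher by edgeR, beside 1 by DESeq2 and 2 at an unadjusted p under 0.05. Wif1 and Rnf43, which both lower WNT signalling, were thus switched in opposite directions. Trh, the precursor of thyrotropin-releasing hormone (chr6:92242061-92244650), had 33, 38 and 38 counts in WT and 3, 5 and 4 in knockout, an even pattern in both genotypes.

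**Figure D4:**
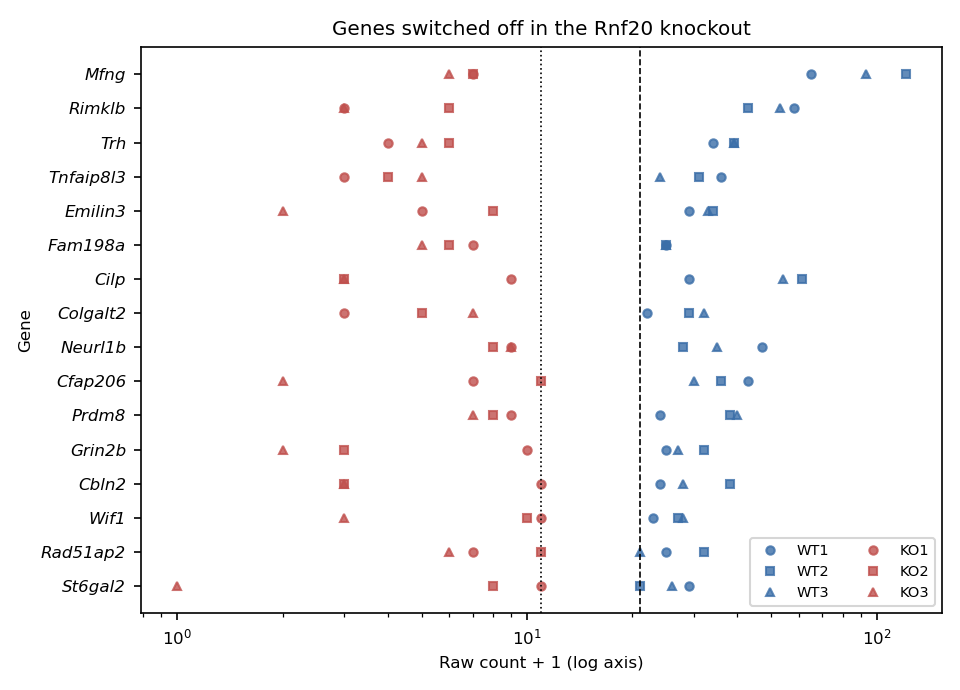
Raw counts plus 1 (log axis) of 16 of the 17 genes switched off, by library; blue symbols are WT1 to WT3, red symbols KO1 to KO3, the dotted line is the limit of 10 counts and the dashed line that of 20 counts. Mfng has the highest WT counts, up to 120, and St6gal2 is at 0 in KO3.

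The genes switched off also included Cilp, Emilin3 and Colgalt2, which act in or on the extracellular matrix. Cilp, a protein of cartilage matrix, had 28, 60 and 53 counts in WT and 8, 2 and 2 in knockout. Emilin3, a matrix glycoprotein, had 28, 33 and 32 counts in WT and 4, 7 and 1 in knockout. Its relative Emilin2 fell from 1008, 972 and 1061 counts to 465, 432 and 372 (log2 fold change -1.26 ± 0.10 SE, adjusted p = 0.00185), and Emilin1 had -0.25 (adjusted p = 0.0676). Colgalt2, which adds galactose to collagen, had 21, 28 and 31 counts in WT and 2, 4 and 6 in knockout, and its relative Colgalt1 was not called. Of 10 other cartilage matrix genes Emilin2 was called lower (1 of 10, beside 4.89% of all genes tested) and 0 were called higher by edgeR. DESeq2 called 2 lower and 1 higher, 4 and 1 had an unadjusted p under 0.05, and the median log2 fold change was -0.13. St6gal2, a sialyltransferase, had 28, 20 and 25 counts in WT and 10, 7 and 0 in knockout.

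A transcriptional repressor, a factor of meiotic recombination and several enzymes were also among the genes switched off. Prdm8, the repressor, had 23, 37 and 39 counts in WT and 8, 7 and 6 in knockout, and of its 10 tested relatives Prdm11 was called lower (log2 fold change -0.63 ± 0.10 SE, adjusted p = 0.00737), with a median of -0.11 over the 10. Rad51ap2, the recombination factor, had 24, 31 and 20 counts in WT and 6, 10 and 5 in knockout, and its relative Rad51ap1 fell from 247, 284 and 252 counts to 94, 86 and 52 (-1.75 ± 0.23 SE, adjusted p = 0.00473). Rimklb, a ligase that makes the dipeptide N-acetylaspartylglutamate, had 57, 42 and 52 counts in WT and 2, 5 and 2 in knockout. Tnfaip8l3, a carrier of phosphoinositides, had 35, 30 and 23 counts in WT and 2, 3 and 4 in knockout, and its relative Tnfaip8l1 had 43, 25 and 39 counts in WT and 12, 8 and 1 in knockout without passing the test (-2.33, adjusted p = 0.0324). Cfap206, a protein of motile cilia, had 42, 35 and 29 counts in WT and 6, 10 and 1 in knockout. Of 14 other motile cilium genes Spag17, a protein of the central pair of the cilium, was called lower (-2.52 ± 0.44 SE, adjusted p = 0.00902), which is 7.14% beside 4.89% of all genes tested, and 0 were called higher by edgeR, by DESeq2 and at an unadjusted p under 0.05. Fam198a, which encodes a Golgi protein, had 24 counts in each WT library and 6, 5 and 4 in knockout. Among the WT libraries 16 of the 17 genes switched off varied by less than 2 times, and their summed counts were 542, 646 and 609 in WT and 110, 99 and 59 in knockout.

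Relatives by symbol gave a view that the limits did not use. Of 142 tested genes that share a symbol root with a switched gene, 13 were called lower (9.15%, beside 4.89% of all genes tested) and 7 higher (4.93%, beside 4.98%). Relatives of the genes switched on were called lower in 9 and higher in 7 of 116 cases, and relatives of the genes switched off were called lower in 4 and higher in 0 of 26 cases by edgeR, beside 6 and 2 by DESeq2 and 8 and 2 at an unadjusted p under 0.05. DESeq2 and the unadjusted p also pass a larger share of all genes. Their counts are therefore not to be set against the 4.89% and 4.98% of edgeR. Of the 13 lower calls 5 were Rnf genes, among them Rnf20 itself, and Rnf112, which had 51, 62 and 59 counts in WT and 9, 11 and 3 in knockout and so missed the limits by 1 count. Of the 7 higher calls 3 were Rnf genes, with Rnf128 the largest (1.45 ± 0.24 SE, adjusted p = 0.00772) and Rnf13 the next (0.82 ± 0.07 SE, adjusted p = 0.00178). Beside the relatives named above, Angpt1, the main ligand of TIE2, fell (-0.81 ± 0.12 SE, adjusted p = 0.00562) where Angpt4 was switched on. Otud1 rose beside Otud7a (1.19 ± 0.15 SE, adjusted p = 0.00402) and Anks1b beside Anks4b (1.12 ± 0.19 SE, adjusted p = 0.00788), whereas Trpm4 fell (-0.92 ± 0.16 SE, adjusted p = 0.00918) where Trpm6 was switched on and Abca7 fell (-1.02 ± 0.18 SE, adjusted p = 0.00933) where Abca4 and Abca13 were. The counts hang on the libraries: without KO3 there were 23 lower and 20 higher, where 16.7% and 16.4% of all genes were called, and without any other library 1 or 2 lower and 0 or 1 higher.

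Neighbours on the chromosome were compared to see whether a switched gene stood alone. The nearest tested gene on either side, at a median gap of 39300 bases, gave 99 genes, of which 9 were called lower (9.09%, beside 4.89% of all genes tested) and 4 higher (4.04%, beside 4.98%). Beside the genes switched on 7 neighbours were lower and 3 higher of 67, and beside the genes switched off 2 were lower and 1 higher of 34. Both neighbours of Ppp2r2c rose, Wfs1, a protein of the endoplasmic reticulum, by 0.96 ± 0.10 SE (adjusted p = 0.00287) and Man2b2, a lysosomal mannosidase, by 0.57 ± 0.10 SE (adjusted p = 0.00830). Otud7a lies between Chrna7, an acetylcholine receptor subunit that rose (1.47 ± 0.27 SE, adjusted p = 0.00979), and the transcription factor gene Klf13, which fell (-0.80 ± 0.07 SE, adjusted p = 0.00202). Il6 was switched on next to Tyms, the thymidylate synthase gene, which fell (-0.84 ± 0.09 SE, adjusted p = 0.00321), and Saa3 1317 bases from Saal1, which fell (-0.61 ± 0.09 SE, adjusted p = 0.00575). Pmf1, a kinetochore gene beside Bglap, fell (-1.46 ± 0.26 SE, adjusted p = 0.00902), as did Bcl7a beside Wdr66 (-0.90 ± 0.11 SE, adjusted p = 0.00387) and Xkr5, which lies 2825623 bases from Defb1 (-1.56 ± 0.17 SE, adjusted p = 0.00326). Vsnl1, a neuronal calcium sensor gene beside Rad51ap2, fell together with it (-1.75 ± 0.31 SE, adjusted p = 0.00904). Neurl1b was switched off 59240 bases from Dusp1, an immediate early phosphatase gene, which rose from 1223, 1108 and 1167 counts to 3879, 3646 and 3213 (1.62 ± 0.09 SE, adjusted p = 0.00144). Without KO3 there were 16 lower and 23 higher neighbours, where 16.7% and 16.4% of all genes were called, and without any other library 0 to 2 of each.

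Some neighbours belong to the same gene family. Ces1f beside Ces1g had a log2 fold change of 1.18 (adjusted p = 0.0393), Ces2g beside Ces2e of 1.25 (adjusted p = 0.0164) and Kng2 beside Kng1 of 2.32 (adjusted p = 0.0554), and none was called. For Ces2g the counts were 33, 29 and 34 in WT and 75, 57 and 96 in knockout, and for Kng2 they were 18, 8 and 17 in WT and 34, 28 and 154 in knockout. In both cases all knockout values lay above all WT values. Of the members that lie closest together, Elmod1 was switched on and Tnfaip8l3 was switched off, 48104 bases apart on chromosome 9. The tested genes that flank this pair, Slc35f2 (-1.46, adjusted p = 0.0466) and Gldn (-1.39, adjusted p = 0.0459), were not called.

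**Figure D5:**
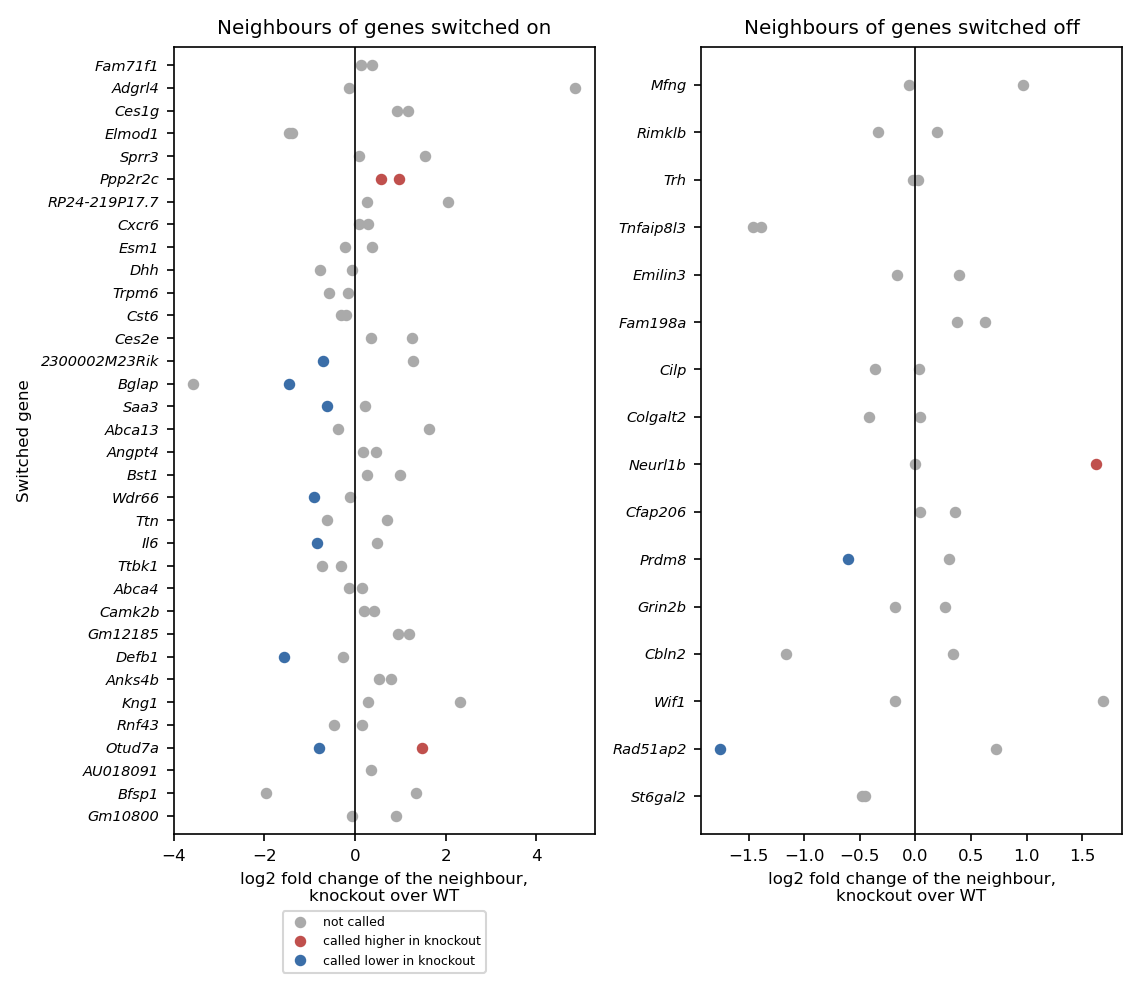
Log2 fold change (knockout over WT) of the nearest tested gene on each side of the switched genes, 1 of those switched off not drawn; grey points are not called, red and blue points are called higher and lower at an adjusted p under 0.01. Neighbours scatter on both sides of 0, and beside the genes switched on 7 are called lower and 3 higher.

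Promoters were matched for 26 genes switched on and 11 switched off. The promoters of the genes switched on were poor in CpG, with a median observed over expected ratio of 0.298 and 23.1% of them over 0.6, beside a median of 0.707 and 61.9% over 0.6 for all 12915 promoters of the count table. The other genes with 10 or fewer counts in each WT library looked the same, with a median of 0.300 and 21.5% over 0.6 (2465 promoters). Camk2b (1.28) and Otud7a (1.10) had the highest ratios among the genes switched on, and Sprr3 and Gm12185 held no CpG. The genes switched off had a median of 0.741 and 54.5% over 0.6, beside 0.582 and 48.6% for the other genes with 20 to 120 counts in each WT library (1069 promoters).

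TATAAA, on either strand, occurred in 6 of the 26 promoters of genes switched on (23.1%), beside 17.0% of the low WT set and 8.95% of all promoters. In Sprr3, Angpt4 and Bglap it began 33, 30 and 27 bases before the start, at the place of a TATA box, as the capitals in the first 2 sequences show. TGACTCA occurred in 1 promoter, that of Il6 (3.85%, beside 4.13% of all). GGGTGTG occurred in 4 of the 11 promoters of genes switched off (36.4%, beside 8.49% of all and 10.1% of the genes with 20 to 120 WT counts), in Rimklb, Cilp, Cfap206 and Wif1, and in none of the 26 of genes switched on. The Wif1 promoter also held CACGTG (9.32% of all promoters). ATGCAAAT, the octamer, occurred in the promoter of Ces1g (3.85%, beside 1.56% of all) and CATTGTT, a SOX site, in that of Trpm6 (3.85%, beside 2.16% of all). A match is a description of letters and not evidence of binding.

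The limits themselves cut through a continuum. Just inside were Gm10800 (5, 10 and 5 counts in WT, 20, 24 and 57 in knockout), AU018091 and Bfsp1 among the genes switched on, and Rad51ap2 and St6gal2 among the genes switched off. Just outside, 1 count short, were Casq1 (4, 5 and 3 counts in WT, 19, 27 and 35 in knockout), Il13ra2 (11, 6 and 3 counts in WT, 56, 37 and 340 in knockout) and Coch (9, 7 and 11 counts in WT, 43, 32 and 54 in knockout). On the other side were Col6a6 (86, 177 and 172 counts in WT, 9, 11 and 1 in knockout), Rnf112, and Pcdh8 (44, 19 and 22 counts in WT, 6, 3 and 4 in knockout). In all 9 and 11 genes missed the limits by 1 count.

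Leaving each library in turn out of the choice showed how many genes that library kept out of the sets. By construction, the genes that met the limit in it were the same 34 and 17 each time. The shares below are therefore a description of the limits and no replication. When the other 5 libraries chose the genes, between 40 and 52 were switched on, and 65.4% to 85.0% of them met the limit in the library left out. Between 18 and 33 were switched off, and 51.5% to 94.4% of them met it. The lowest shares belonged to KO2 in both directions. The count in the library left out still lay beyond all libraries of the opposite genotype for all chosen genes switched on except in KO2 (50 of 52), and for 29 of 33 genes switched off in KO2, 29 of 30 in WT1 and 22 of 23 in WT2.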

How the data were processed

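RNA of 3 WT and 3 Rnf20 knockout samples was sequenced by the authors as poly(A)-selected, strand-specific libraries and aligned with HISAT2 2.1.0 to GRCm38/mm10, per the methods and the submitters' processing notes. The deposited count table holds whole-number reads per gene with gene lengths in bases. The counting program and its strand setting were not given in the sources used here. The authors computed the deposited FPKM values with Cufflinks 2.1.1. Columns with the authors' own fold change and FDR were not used.

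The switched genes and the gene lists were chosen with earlier results of these data known. Genes were named by rule: 15 in each direction with the largest ratio of the lowest high count to the highest low count plus 1, every switched gene with a described role, the 3 nearest the limits on either side, and relatives, list genes and neighbours that were called, at most 5 in each direction by size. List genes, neighbours and relatives outside that rule were chosen after their values were seen. They are Angpt1, Trpm4, Klf13, Saal1, Ihh, Ptch1, Hhip, Smo, Gli2, Gli3, Camk2d, Camk2g, Lfng, Dll1, Hey1, Hey2, Heyl, Hes1, Notch1, Sprr1a, Emilin1, Colgalt1, Tnfaip8l1, Rhebl1, Fyco1, Ces1f, Ces2g, Kng2, Slc35f2 and Gldn. A few genes that enter the counts are not reported here by name.

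The counts were analysed in edgeR 4.0.16 (R 4.3.3) with TMM factors, filterByExpr (13386 genes tested), and the quasi-likelihood test with Benjamini-Hochberg adjustment over all genes tested, called at 0.01. No covariate was used. The standard error (SE) is the size of the log2 fold change over the square root of F. Levels are CPM on TMM-normalized totals. DESeq2 1.42.0 was an alternative. It called a larger share of all genes than edgeR did, and so does an unadjusted p under 0.05. Counts given for a list or for relatives under either are to be read beside that larger share. For DESeq2 it stands with the Hedgehog genes. For the unadjusted p it is not given, so those counts are no result about a list or the relatives. Relatives share the symbol before its last digits, members left out. Neighbours are the nearest tested genes by GENCODE M21, to which 16496 genes matched by identifier. RefSeq promoters (GRCm38.p6) matched 37 of the 51 genes by symbol or synonym, and the first listed was used. Shared sequence was counted over windows of 75 bases in GENCODE transcripts. In simulated counts for this comparison (13256 genes tested), the test called 184 of 199 genes with a simulated log2 change of 2, and 2 unchanged genes. The changed genes were drawn only from those with a mean over 1 CPM. The libraries of a genotype were simulated alike, so that none stood apart as KO3 did. The share called therefore does not carry over to rarer genes or to these libraries.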

Additional observations from a re-analysis of the deposited data

How the results depend on the processing

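The choice of genes depended on the limits more than on the scale. With TMM-scaled counts 34 genes were switched on and 12 off; with counts scaled to library totals 22 were switched on and 17 off, since members that sit exactly at 10 or 20 counts leave under any scaling. With 5 or fewer counts in the low genotype 7 were switched on and 3 off, and with 40 or more in the high genotype 3 and 2. Leaving out each library in turn gave 40 to 52 switched on and 18 to 33 switched off. The sign of the log2 differences of the 51 genes is fixed by the limits, and of their 408 values under alternatives 10, all with 0.5 counts added, moved by more than the SD between replicates.

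The counts of called genes depended on the test. Among relatives, 13 lower and 7 higher became 21 and 21 with DESeq2, 24 and 22 at an adjusted p under 0.05, 4 and 4 with the 3 criteria of the methods, and 8 and 4 without the root Rnf, an alternative chosen after seeing the data. Among neighbours, 9 lower and 4 higher became 15 and 24, 18 and 30, and 3 and 2 under the first 3 of these. Among the listed genes, 6 lower and 4 higher became 14 and 8, 15 and 9, and 4 and 2. DESeq2 and the threshold of 0.05 also called a larger share of all genes, and the 3 criteria can only lower that share. Whether the changes in these counts were particular to the relatives, neighbours or listed genes was not tested. Leaving out each library in turn gave 1 to 23 lower and 0 to 20 higher relatives, 0 to 16 lower and 0 to 23 higher neighbours, and 0 to 19 lower and 0 to 16 higher listed genes. The highest count came without KO3 in each case, where 16.7% of all genes were called lower and 16.4% higher, and the others left 0.00735% to 0.465% lower and 0% to 0.635% higher. Replicate numbers did not pair the libraries (correlations of deviations -0.065, 0.037 and 0.011), and with the replicate block 0 genes were called in each of the 6 counts and 0% of all genes. RLE factors and no filter on low counts left each of the 6 counts within 1.5 times. Counts near 10 limit all values of the switched genes.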
